A study of Homo sapiens with 2 samples.

Results

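The 10 genes described here form a group of chromatin regulators mutated in breast cancer, namely ARID1A, ARID1B, SMARCA4, SMARCA2, KMT2C, KMT2D, NCOR1, SETD2, EZH2 and PBRM1. They were taken as a named list, 10 of the 20033 protein-coding genes that GENCODE release 44 places on chromosomes 1 to 22, X and Y. No measured value was a criterion of the choice, but earlier results of these data were known when it was made. Chromatin accessibility was profiled by ATAC-seq, in which the Tn5 transposase cuts and tags open DNA, in CAMA-1, an established human breast adenocarcinoma cell line. The cells were untreated and grown adherent in DMEM with fetal bovine serum and antibiotics, and 2 biological replicates of 50000 cells each make up the only condition, so no conditions could be compared and each value is given for both replicates. All replicates come from 1 cell line, and the lists hold no normal breast cells or second line to set beside it. For each gene, the peaks of both replicates were taken over the gene body and 20 kb either side, on hg38.

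The nucleus packs DNA around histone proteins, and these regulators either move nucleosomes or write and read chemical marks on histones. SWI/SNF complexes slide or eject nucleosomes with the energy of ATP: SMARCA4 (BRG1) and SMARCA2 (BRM) are alternative ATPases, ARID1A and ARID1B are alternative DNA-binding subunits of the BAF form, and PBRM1 is a bromodomain subunit of the PBAF form. KMT2C and KMT2D methylate histone H3 lysine 4 at enhancers, SETD2 trimethylates lysine 36 along transcribed genes, EZH2 methylates lysine 27 as the catalytic subunit of the Polycomb complex PRC2, and NCOR1 is the scaffold through which nuclear receptors recruit the deacetylase HDAC3. The expression of the genes was not analysed here, so that the values below describe how open their DNA was and not how much RNA they made.

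A peak's strength is given as its height, the reads stacked at its highest base, and as its fold enrichment. The fold enrichment is the height plus 1, divided by the background that the peak caller assumed plus 1. The lists held 245736 peaks in replicate 1 and 259745 in replicate 2, with a median height of 35 in both and a lowest of 11. Library depth is not in the lists, so height stood in for it, and a site below the calling threshold is simply not listed. Overlapping peaks of the replicates were joined into 215195 regions found in both. The labelled epithelial cell type was checked with markers: all 10 listed genes of luminal breast epithelium had a peak in both replicates within 1 kb of an annotated transcription start site (TSS), as did 1 of 6 blood, 2 of 4 endothelial, 5 of 5 mesenchymal and 4 of 4 basal markers. The median fold enrichment of these peaks was 90.8 for the luminal list, 18.3 for the mesenchymal list and 8.06 for the basal list.

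All 10 genes had a peak within 1 kb of an annotated TSS in both replicates, against 79.3% of all protein-coding genes. The strongest such peak, as the mean of both replicates, ranged from a fold enrichment of 29.3 at PBRM1 to 142.1 at SMARCA2. The order from high to low was SMARCA2, SMARCA4, ARID1B, KMT2D, EZH2, ARID1A, NCOR1, SETD2, KMT2C and PBRM1. The pair of replicate values of a gene did not overlap those of its neighbours in this order, and the widest spreads were at ARID1B, from 80.8 to 101.9, and SMARCA2, from 135.8 to 148.4. The 95% Poisson intervals of the heights did overlap in both replicates among KMT2D, EZH2 and ARID1A (mean fold enrichment 72.8, 68.3 and 64.5) and between KMT2C and PBRM1 (34.1 and 29.3). Such an overlap is not a test, and differences between genes were not tested. The median over the 10 genes was 66.4, and that over the 15890 protein-coding genes with such a peak was 52.6, a ratio of 1.26. The ratio fell to 0.853 when the peak had to cover the TSS itself, and to 0.638 when only the 5′ end of each gene was used, so that its direction depended on which start was counted.

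**Figure D1:**
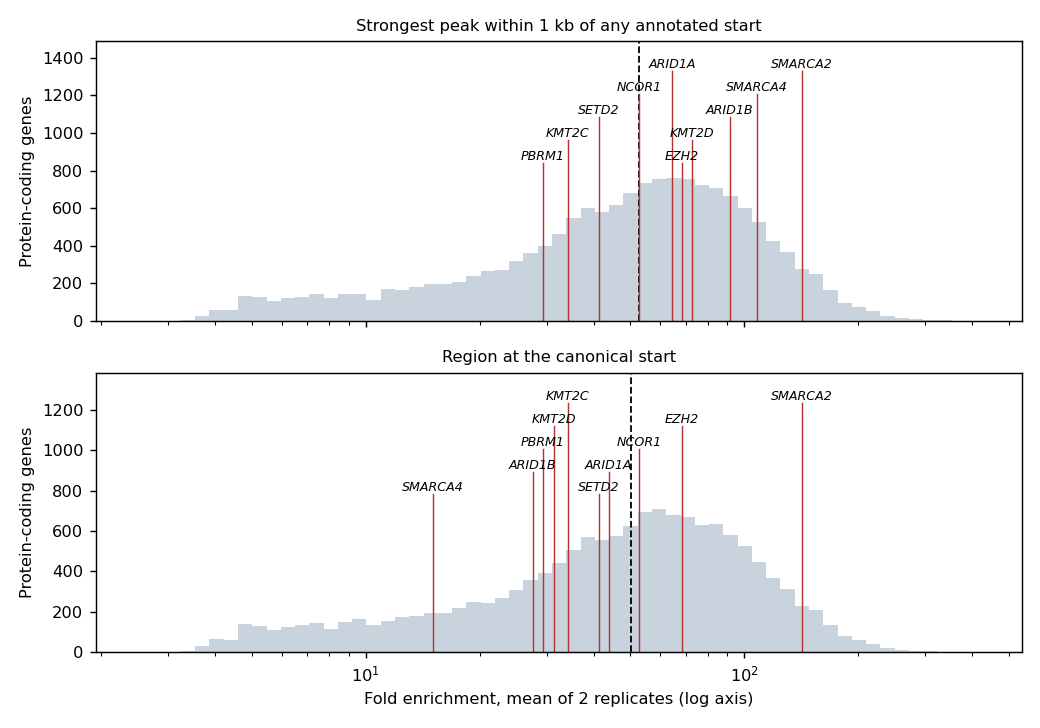
Histograms of fold enrichment (mean of 2 replicates, log axis) over protein-coding genes, for the strongest peak within 1 kb of any annotated TSS (top) and for the region at the canonical TSS (bottom), with a red line for each of the 10 genes and a dashed line at the median of all genes. SMARCA4, ARID1B, KMT2D and ARID1A lie above the median in the top panel and below it in the bottom panel.

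The choice of start mattered for 4 of the 10 genes, because their strongest TSS region did not lie at the canonical start, the 5′ end of the transcript that Ensembl uses to represent the gene. Of all protein-coding genes with a TSS region, 20.6% had their strongest one elsewhere, and the 10 genes have far more annotated starts to choose from, a median of 26 positions against 5. Every one of the 10 did have a region at its canonical start in both replicates. The median fold enrichment there was 37.7, below the 50.1 of the 14752 protein-coding genes with a region at their canonical start.

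SMARCA4, the BRG1 ATPase gene on chromosome 19 (10960932 to 11079426, plus strand), had the widest gap between its canonical start and its strongest one among these 4 genes. At the canonical start the region chr19:10960203-10961427 had a height of 67 reads in replicate 1 and 64 in replicate 2, a fold enrichment of 15.6 and 14.4. This placed it at the 14.5th percentile of canonical starts that had a region. In intron 29, 74355 bp downstream, the region chr19:11035385-11036347 reached 468 and 488 reads, a fold enrichment of 107.9 and 108.1. The 95% Poisson intervals of the height, which cover counting error only, were 52 to 85 reads at the canonical start and 427 to 512 in intron 29 in replicate 1. The intronic region covers no annotated TSS. It lies 363 bp from the start of 1 annotated protein-coding transcript, SMARCA4-216, while 14 annotated TSS positions lie within 1 kb of the canonical region. Whether transcription starts at the intronic region was not tested.

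The sequences of both sites are shown because they differ in composition. The 300-base RefSeq promoter window of SMARCA4, 250 bases before and 50 after the start, was 81.3% G and C with 55 CpG, and the central 300 bases of the intron 29 region were 53.3% G and C with 6 CpG. The promoter bases that no transcript annotates as UTR follow, with GGGCGG (the GC box of SP and KLF factors) or its reverse complement in capitals. The central bases of the intronic region follow with TGANTCA (AP-1) and GCCNNNGGC (AP-2) in capitals.
SMARCA4 canonical promoter, chr19:10960780-10960931, plus strand: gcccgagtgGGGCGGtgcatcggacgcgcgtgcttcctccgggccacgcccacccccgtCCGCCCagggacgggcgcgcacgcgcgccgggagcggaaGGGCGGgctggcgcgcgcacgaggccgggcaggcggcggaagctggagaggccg
SMARCA4 intron 29 region, chr19:11035716-11036015, plus strand: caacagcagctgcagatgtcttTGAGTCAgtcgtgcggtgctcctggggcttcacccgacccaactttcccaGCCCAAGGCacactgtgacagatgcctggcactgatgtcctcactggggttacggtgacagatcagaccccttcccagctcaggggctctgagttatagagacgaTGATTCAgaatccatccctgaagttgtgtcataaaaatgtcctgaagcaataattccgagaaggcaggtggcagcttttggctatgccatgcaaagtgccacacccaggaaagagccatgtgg
The intronic stretch held 2 AP-1 matches and 1 AP-2 match.

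SMARCA2, the gene of the alternative ATPase BRM on chromosome 9 (1980290 to 2193624, plus strand), had the most accessible start of the list. The region chr9:2014628-2018236 was 3609 bp wide and reached 589 reads in replicate 1 and 670 in replicate 2, a fold enrichment of 135.8 and 148.4. It lay at the 94.9th percentile of protein-coding genes, and 17 annotated TSS positions of SMARCA2 lay within 1 kb of it. The other starts of the gene had weak peaks or none. The outermost annotated 5′ end had no peak in either replicate, and the cluster of 18 TSS positions of the short isoforms, at chr9:2157392-2158032 in intron 27, had only 27 and 40 reads. No other region in the window exceeded a mean fold enrichment of 19.8, the value of the strongest region more than 1 kb from any TSS, in intron 2. The promoter bases of the canonical start that lie outside annotated UTRs contain a GC box, in capitals.
SMARCA2 canonical promoter, chr9:2015097-2015185, plus strand: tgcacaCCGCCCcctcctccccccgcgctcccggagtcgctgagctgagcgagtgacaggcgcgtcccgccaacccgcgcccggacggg
Both ATPase genes thus had a single dominant region within 1 kb of a TSS. It lay at the canonical start in SMARCA2 and far inside the gene in SMARCA4, 363 bp from the nearest annotated start.

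ARID1B, a DNA-binding BAF subunit on chromosome 6 (156776020 to 157210779, plus strand), held the most regions, 62 over a window of 475 kb. Its strongest TSS region, chr6:157198322-157198986 in intron 16, had 350 reads in replicate 1 and 460 in replicate 2, against 102 and 141 reads at the canonical start. The transcript annotated to start near it, ARID1B-215, is a retained-intron transcript, 420944 bp from the canonical start. Further starts inside the gene were open as well, with 240 and 248 reads in intron 1 at chr6:156780151-156780740 and 197 and 236 reads in intron 4 at chr6:157021004-157022460. The intron 1 region also lies within 1 kb of the starts of a long noncoding RNA gene and MIR4466, and the canonical region within 1 kb of the start of another long noncoding RNA gene, so neither can be assigned to ARID1B alone. ARID1B therefore had 3 internal TSS regions above its canonical one in both replicates. The central bases of the intron 16 region are shown with an AP-2 match in capitals. The window before the canonical start lies wholly in annotated UTR and is not printed.
ARID1B intron 16 region, chr6:157198504-157198803, plus strand: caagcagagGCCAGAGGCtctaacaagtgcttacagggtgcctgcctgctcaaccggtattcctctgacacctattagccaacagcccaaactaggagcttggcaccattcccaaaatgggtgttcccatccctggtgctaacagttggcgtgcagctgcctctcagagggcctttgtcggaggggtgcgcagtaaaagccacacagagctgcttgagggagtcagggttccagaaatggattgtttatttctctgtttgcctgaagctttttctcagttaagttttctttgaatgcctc

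ARID1A, the alternative BAF subunit on chromosome 1 (26693236 to 26782104, plus strand), had a weaker gap between its starts. The region at the canonical start, chr1:26695295-26696303, had 189 and 197 reads. The strongest TSS region, chr1:26692142-26693533, had 282 and 288 reads, lay 2482 bp upstream of that start, and is shared with the starts of 2 long noncoding RNA genes. The most accessible site of the ARID1A window was neither. At chr1:26677431-26677986, 18.3 kb upstream of the canonical start and 14600 bp from the nearest annotated TSS, 590 reads were stacked in replicate 1 and 597 in replicate 2, a mean fold enrichment of 134.1 and the 99.3rd percentile of all 215195 regions. This was the strongest of the 162 regions in the 10 windows that lay more than 1 kb from any TSS, and its central 300 bases are shown for that reason, with an AP-1 and an AP-2 match in capitals.
ARID1A upstream region, chr1:26677559-26677858, plus strand: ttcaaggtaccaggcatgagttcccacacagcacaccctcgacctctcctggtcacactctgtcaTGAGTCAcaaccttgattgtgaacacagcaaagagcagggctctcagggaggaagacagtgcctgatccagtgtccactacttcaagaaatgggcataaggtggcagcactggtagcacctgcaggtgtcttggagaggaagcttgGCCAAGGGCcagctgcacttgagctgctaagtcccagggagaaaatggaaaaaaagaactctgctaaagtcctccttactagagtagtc

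PBRM1, the PBAF bromodomain subunit on chromosome 3 (52545352 to 52685917, minus strand), had the lowest TSS peak of the list. The region chr3:52685363-52686498 had 126 and 132 reads, a fold enrichment of 29.2 and 29.4, at the 26.1st percentile. Its start lies 119 bp from that of GNL3, a nucleolar GTP-binding protein gene on the opposite strand, so the openness there cannot be assigned to PBRM1 alone. Of the 21 regions in its window, 13 were near TSSs of other genes only, including UQCC5, named after its values were seen, at 409 and 441 reads. The gene body itself was sparse, with 62 kb free of any peak in either replicate, and its strongest region away from TSSs was in intron 18 with 153 and 182 reads. The bases between the PBRM1 and GNL3 starts that lie outside annotated UTRs are shown; none of the searched motifs occurs in them.
PBRM1 canonical promoter, chr3:52685918-52686015, minus strand: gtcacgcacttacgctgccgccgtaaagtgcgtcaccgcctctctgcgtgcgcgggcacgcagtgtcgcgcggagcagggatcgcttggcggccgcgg

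**Figure D2:**
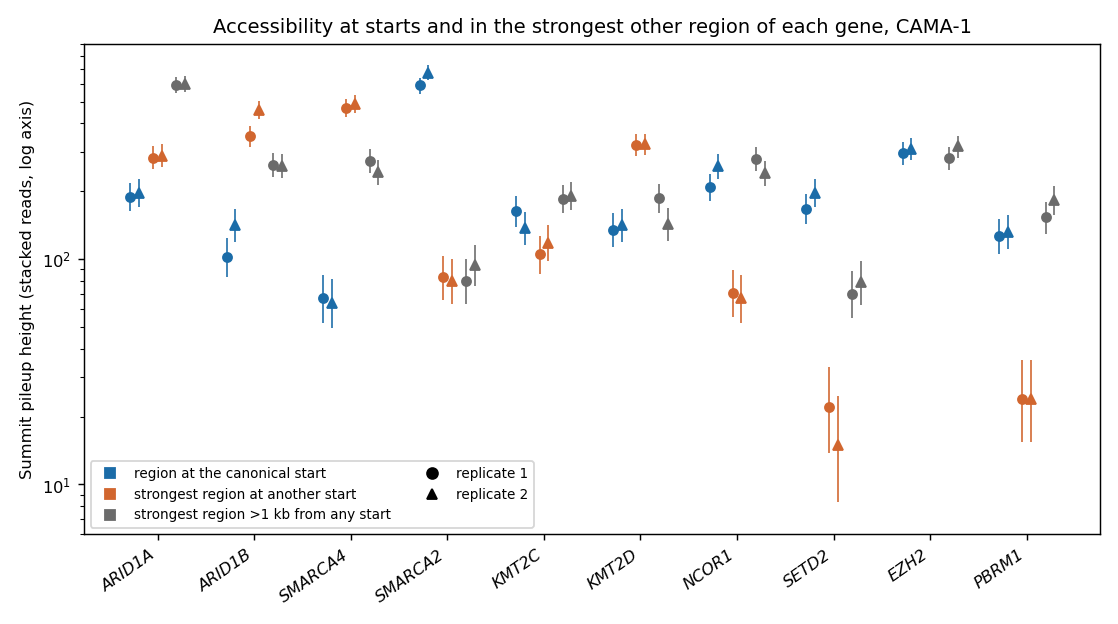
Height of the summit in reads (log axis) in replicate 1 (circles) and replicate 2 (triangles), with 95% Poisson intervals that cover counting error only, for the region at the canonical TSS (blue), the strongest region at another TSS of the gene (orange) and the strongest region more than 1 kb from any TSS (grey). In ARID1A, ARID1B, SMARCA4 and KMT2D the orange points lie above the blue ones in both replicates, and EZH2 has no orange point.

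The pair of lysine 4 methyltransferase genes differed in how their openness was laid out. KMT2D on chromosome 12 (49018975 to 49060794, minus strand) was the most densely marked of the 10, with 25 regions in a window of 81.8 kb, or 30.6 per 100 kb, the 90.2nd percentile of protein-coding genes. At its canonical start it had 135 and 141 reads. In intron 1, 4416 bp downstream, the region chr12:49055985-49056378 had 320 and 323 reads, a fold enrichment of 73.9 and 71.6. It covers no annotated TSS and lies 661 bp from the start of the protein-coding transcripts KMT2D-215 and KMT2D-233. A further TSS region of KMT2D in intron 22 had 178 and 176 reads. The intron 1 sequence is shown with its AP-2 match in capitals.
KMT2D intron 1 region, chr12:49056032-49056331, plus strand: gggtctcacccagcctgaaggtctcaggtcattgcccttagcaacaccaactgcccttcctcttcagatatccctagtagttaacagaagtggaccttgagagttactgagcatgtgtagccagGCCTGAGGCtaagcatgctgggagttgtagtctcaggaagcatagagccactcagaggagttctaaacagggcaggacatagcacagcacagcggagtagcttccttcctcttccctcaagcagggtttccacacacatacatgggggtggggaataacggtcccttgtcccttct

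KMT2C on chromosome 7 (152134922 to 152436644, minus strand) had a TSS region with 163 reads in replicate 1 and 137 in replicate 2, a fold enrichment of 37.7 and 30.5, at the 31.0th percentile. That region also lies within 1 kb of an annotated start of the pseudogene FABP5P3, so it cannot be assigned to KMT2C alone. In KMT2C the strongest region was not at a TSS, as chr7:152394251-152394611 in intron 1, 41.6 kb into the gene, had 185 and 191 reads, and a further region in intron 2 had 172 and 197. The window held 7.61 regions per 100 kb, and 27 of 36 peaks of replicate 1 and 26 of 36 of replicate 2 were found in the other replicate, among the lowest shares of the 10 windows, with SETD2 lower in replicate 2 at 10 of 16. KMT2C has near-identical copies of part of its sequence elsewhere in the genome. Of 31-base words sampled every 50 bases, 28.3% in the KMT2C window occurred again in hg38, the highest share of the 10 and against 15.6% over all windows. How the authors treated reads that align to several places is not given in the sources used here, and the part of this in the KMT2C values was not tested. Its promoter window had the highest share of G and C, 88.7%, with 15 matches to the GC box, some of which fall in the bases outside annotated UTRs.
KMT2C canonical promoter, chr7:152436147-152436253, minus strand: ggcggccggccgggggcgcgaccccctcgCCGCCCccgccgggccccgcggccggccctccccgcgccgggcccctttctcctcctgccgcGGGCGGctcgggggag

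SETD2 on chromosome 3 (47016428 to 47164113, minus strand), which encodes the lysine 36 methyltransferase, was among the least marked. Its TSS region chr3:47163411-47164910 had 167 and 197 reads, a fold enrichment of 38.7 and 43.8, and is shared with the antisense gene KIF9-AS1, whose start lies 384 bp away. Apart from that promoter the gene was nearly bare. Only 4 regions lay more than 1 kb from a TSS, the strongest with 70 and 79 reads in intron 18, and 69 kb lay free of any peak in either replicate, the longest such stretch in the 10 windows. The promoter bases are shown with the GC box in capitals.
SETD2 canonical promoter, chr3:47164114-47164363, minus strand: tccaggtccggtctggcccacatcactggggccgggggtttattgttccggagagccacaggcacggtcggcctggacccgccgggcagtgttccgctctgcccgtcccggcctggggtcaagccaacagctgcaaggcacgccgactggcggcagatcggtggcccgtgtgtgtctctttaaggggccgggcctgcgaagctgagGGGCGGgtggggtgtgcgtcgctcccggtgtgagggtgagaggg

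EZH2 on chromosome 7 (148807257 to 148884321, minus strand), the PRC2 methyltransferase gene, combined an open start with a comparably open internal region. Its only TSS region, chr7:148883293-148885411, had 295 and 309 reads, a fold enrichment of 68.1 and 68.5. In intron 1, 19 kb into the gene, chr7:148864804-148865761 had 280 and 316 reads, a mean fold enrichment of 67.4. The 95% intervals of the heights at both sites overlapped in each replicate, and the order of the sites differed between the replicates. A difference between them was not tested. The EZH2 promoter held 4 CCAAT boxes, 4 GC boxes and 1 E2F match within 300 bases, and was the only promoter of the 10 with an E2F match.

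NCOR1 on chromosome 17 (16029065 to 16218185, minus strand), the corepressor scaffold gene, had 208 and 258 reads at its TSS region chr17:16214805-16216188. That region lay at the 50.1st percentile of protein-coding genes. A weaker region at chr17:16216986-16217748, with 71 and 67 reads, lies next to the start of PIGL, a gene of glycolipid anchor synthesis whose own start is 1676 bp from that of NCOR1 on the opposite strand. Inside NCOR1 the strongest region was at exon 4, chr17:16171544-16172077, with 278 and 241 reads, and the remainder of the window was weak, where the next region away from TSSs had 62 and 69 reads.

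**Figure D3:**
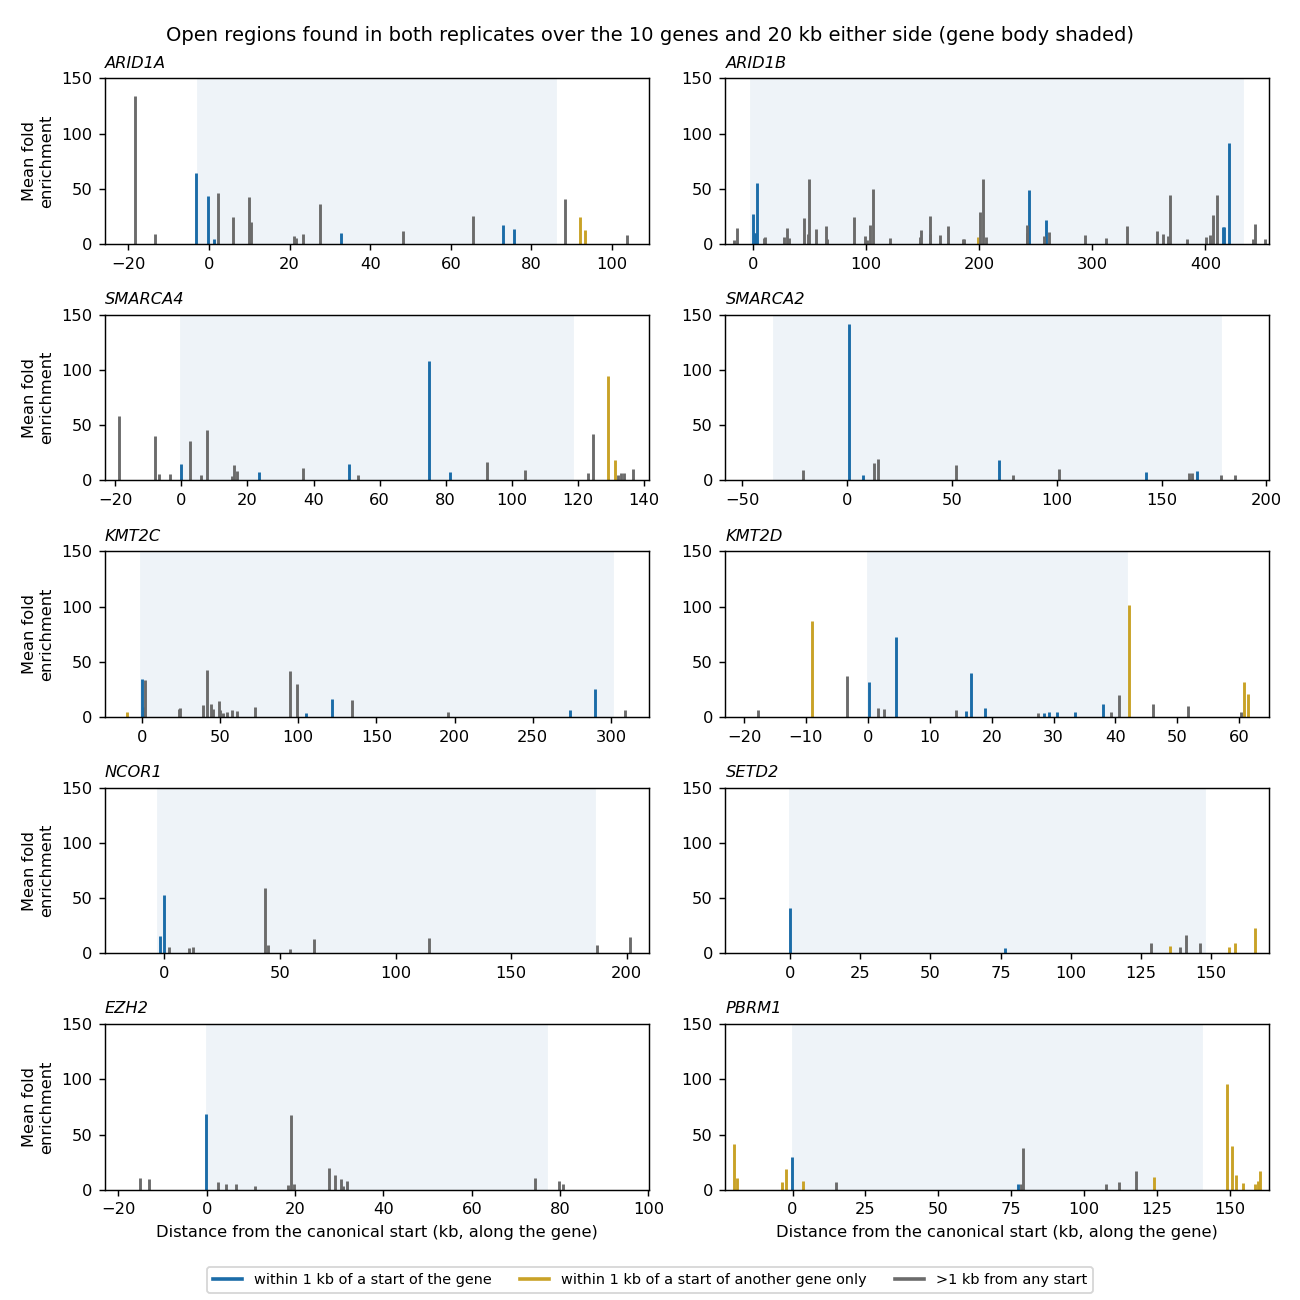
Regions found in both replicates in the window of each gene, by distance of the midpoint from the canonical TSS in kb along the direction of the gene, against mean fold enrichment, with the gene body shaded. Blue lines mark regions within 1 kb of a TSS of the gene, yellow lines those within 1 kb of a TSS of another gene only and grey lines those more than 1 kb from any TSS. KMT2C, NCOR1, SETD2 and PBRM1 show stretches of over 60 kb without a region found in both replicates.

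In all, 238 regions lay in the 10 windows. Of these, 49 were near a TSS of the gene itself, 27 near a TSS of another gene only and 162, or 68.1% (95% Wilson interval 61.9 to 73.7), more than 1 kb from any TSS. The share over all regions of the genome was 80.1%. Most of the 162 were inside the genes, with 122 in introns, 54 of them in intron 1, 5 in exons, 13 upstream and 22 downstream of the canonical transcript. Their median fold enrichment was 8.67, close to the 9.13 of all such regions in the genome. The density of regions had a median of 12.3 per 100 kb over the 10 genes and 11.6 over all protein-coding genes, from 5.24 at NCOR1 to 30.6 at KMT2D. SMARCA2, SETD2 and NCOR1 all lay below 6 per 100 kb, whereas ARID1A and SMARCA4 had 17.1 and 17.0.

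The strongest region away from TSSs had a mean fold enrichment of at least 58 in 5 genes. Beside ARID1A (134.1) and EZH2 (67.4), these were ARID1B at 59.0 in intron 1, NCOR1 at 58.9 and SMARCA4 at 58.5, the latter 18.8 kb upstream of the canonical start with 273 and 243 reads. KMT2C, PBRM1 and KMT2D followed at 42.6, 38.0 and 37.4, and SMARCA2 and SETD2 came last at 19.8 and 17.0. In ARID1A, ARID1B and SMARCA4 this region was higher than the region at the canonical start in both replicates, and the Poisson intervals of the heights did not overlap. In KMT2C, KMT2D and PBRM1 it was also higher in both. There the intervals overlapped in replicate 1 for KMT2C, in replicate 2 for KMT2D (143 against 141 reads) and in both for PBRM1. In SMARCA2 and SETD2 it was lower in both. In NCOR1 and EZH2 the order differed between the replicates. The region compared was the strongest of several in each gene, up to 51 in ARID1B. The share of all protein-coding genes with this order was not computed.

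Annotated starts far outnumbered open ones. Of 316 distinct TSS positions of the 10 genes, 90 or 28.5% (95% Wilson interval 23.8 to 33.7) lay under a peak in both replicates, against 49.0% of the TSS positions of all protein-coding genes. The 10 genes have a median of 26 annotated positions against 5 per protein-coding gene. The part of this in the lower share was not tested. The share was lowest in SETD2, KMT2D and KMT2C, at 3 of 20, 4 of 25 and 12 of 50 positions, and highest in PBRM1 and EZH2, at 8 of 13 and 11 of 19. Positions of 1 gene share a sequence and a promoter and are not independent, so that the intervals understate the uncertainty.

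Sequence features that the choice of genes did not use were compared with RefSeq promoter windows of the same length (GRCh38.p14), which matched all 10 genes at their canonical start. The 10 windows had a median of 72.3% G and C and a CpG observed/expected ratio of 0.942, against 58.7% and 0.579 over 35116 promoters. GGGCGG on either strand occurred in 9 of 10, with NCOR1 the exception, and in 45.0% of all promoters. CCAAT occurred in 2 of 10 (EZH2 and PBRM1) and 34.6% of all, and AAGATGGCG (YY1) in NCOR1 alone and 1.75% of all. No window held TATAAA (11.5% of all), GCGCATGC (NRF1, 3.05%), CCGGAAGT (ETS, 4.14%) or TGACGTCA (CRE, 1.85%), and TTTCCCGC or TTTGGCGC (E2F, 2.27%) was in EZH2 only. The PBRM1 match falls in bases that are not printed. These counts describe exact letters in 1 window per gene. SMARCA4 and KMT2C, with the highest shares of G and C, had 67 and 64 reads and 163 and 137 reads at the canonical start, and the part of base composition in these values was not tested.

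In the central 300 bases of the 162 regions away from TSSs, motif matches came at shares near those of all 172293 such regions. The GATA factor letters AGATAA were in 25 regions, 15.4% against 15.7%, and TGANTCA (AP-1) also in 25, 15.4% against 14.6%. GCCNNNGGC (AP-2) was in 19, 11.7% against 13.6%. TGTTTAC (forkhead factors) was in 8, 4.94% (95% Wilson interval 2.52 to 9.44) against 8.12%. No match was found in the 162 to AACCGGTT (grainyhead factors), AGGGGGCGC (CTCF), CCGGAAGT or the full palindrome of the estrogen response element, each of which was in under 1% of all such regions.

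Most peaks over the 10 genes were found in both replicates. Of 283 peaks of replicate 1 in the windows, 244 or 86.2% (95% Wilson interval 81.7 to 89.8) overlapped a peak of replicate 2, against 90.2% over the genome. Of 288 peaks of replicate 2, 243 or 84.4% (79.7 to 88.1) overlapped a peak of replicate 1, against 84.7%. The peaks without a partner were weak, with a median fold enrichment of 4.14 in replicate 1 and 4.20 in replicate 2 and none above 6.67. Heights were compared region by region with an exact two-sided binomial test and Benjamini-Hochberg adjustment over all 215195 regions, which compares the 2 libraries and not conditions. Of all regions 0.000465% differed, a single region, and 0 of the 238 did, while 9 of the 238 (3.78%) and 4.5% of all regions had an unadjusted p below 0.05. The smallest adjusted p in the windows was 0.703, for the KMT2D region 3.3 kb upstream of the canonical start with 186 and 143 reads. In regions with at least 200 reads over both replicates, the mean chi-square statistic per region was 1.33 over the genome and 1.47 over 55 regions of the 10 genes, where counting error alone gives about 1, so the replicates varied slightly beyond counting error.

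**Figure D4:**
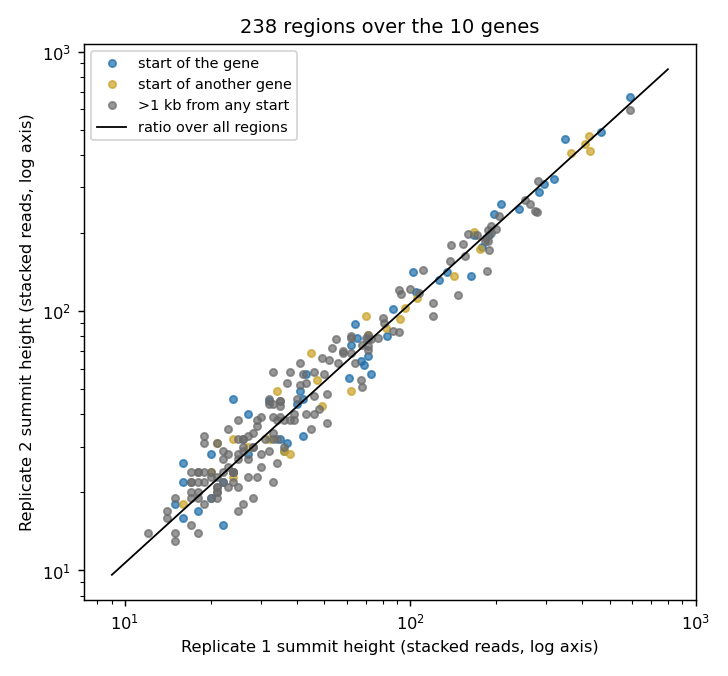
Summit height in reads in replicate 1 against replicate 2 (log axes) for the 238 regions of the 10 genes, coloured by the kind of TSS nearby, with a line at the ratio of summed heights over all regions (1.07). The points follow the line over the whole range, with wider scatter below 50 reads.

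The loci were also set beside their surroundings, since the height of a peak rises with the number of DNA copies and copy number was not analysed here. Relative to the median TSS peak of protein-coding genes within 5 Mb, ARID1B, SMARCA2 and SMARCA4 had ratios of 2.66, 2.5 and 2.3. KMT2C and PBRM1 lay below their surroundings at 0.680 and 0.719, SETD2 (1.01) and KMT2D (1.07) were level with theirs, and EZH2, ARID1A and NCOR1 lay between 1.31 and 1.39. SMARCA2, SMARCA4 and ARID1B ranked highest and KMT2C and PBRM1 lowest both against neighbours and against the genome. The neighbours numbered only 29 for ARID1B and 27 for SMARCA2, and the part of copy number in these values was not tested.

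Partner genes of the same complexes gave the context. Of 58 genes that encode other subunits or relatives, 56 had a TSS peak in both replicates, against 79.3% of all protein-coding genes. The number of annotated starts, which differs between genes, was not accounted for. The median fold enrichment of these peaks was 52.2, against 52.6 over all protein-coding genes with such a peak. By group, 22 of 23 SWI/SNF genes (median 53.3), 12 of 12 COMPASS genes (48.2), 6 of 6 NCoR genes (45.8), 5 of 5 lysine 36 methyltransferase genes (75.2) and 11 of 12 PRC2 genes (47.2) had one. The highest were NSD3, a lysine 36 methyltransferase gene, at 216.5, PHF1, a PRC2 accessory subunit, at 164.2 and ACTL6A, an actin-related SWI/SNF subunit, at 157.1. The lowest were ACTL6B, the neuronal counterpart of ACTL6A, at 3.83, BCL7A, a small SWI/SNF subunit, at 11.3 and SMARCE1, a subunit with a high-mobility-group domain, at 12.6. Within PRC2, and chosen after the values were seen, the core subunit genes SUZ12 and EED had 14.6 and 22.3 beside the 68.3 of EZH2. RBBP4 and RBBP7, on the same PRC2 list, had 65.9 and 34.3. A strongest TSS region away from the canonical start was found in 6 of the 56 partner genes, against 20.6% of all protein-coding genes with a TSS region. ACTL6B could not be assessed for this, because its peaks in replicate 1 and replicate 2 (3.45 and 4.20) did not overlap and so formed no region.

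**Figure D5:**
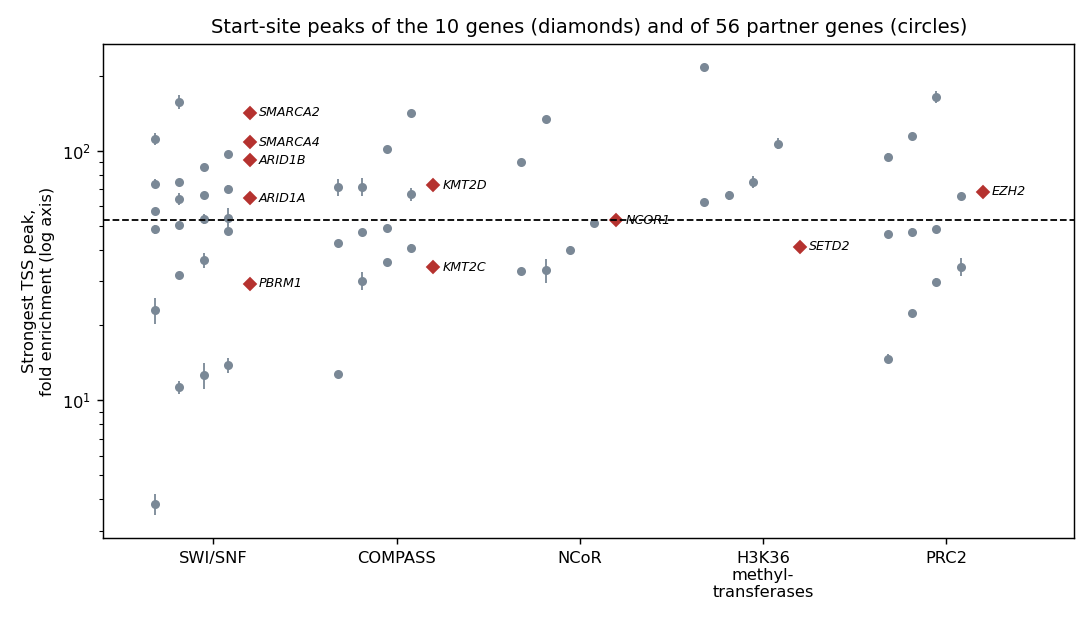
Fold enrichment of the strongest TSS peak (log axis) for the 10 genes (red diamonds, mean of 2 replicates) and 56 partner genes (grey circles, mean, with lines joining the replicates), by complex, with a dashed line at the median of all protein-coding genes with such a peak. SMARCA2 and SMARCA4 lie in the upper part of the SWI/SNF column and PBRM1 and KMT2C below the dashed line.

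The 2 partner genes without a TSS peak were EZHIP, an inhibitor of PRC2 that is mainly expressed in the germ line, and BRD7, a bromodomain subunit of PBAF. BRD7 on chromosome 16 (50313487 to 50368988) lies in a stretch from 50155282 to 50741489, 586 kb long, that holds no peak in either replicate. The 5′ ends of 5 protein-coding genes lie in it, namely BRD7 and, named after the stretch was seen, ADCY7, NKD1, SNX20 and NOD2. In the whole genome, unassembled sequence included, 72 stretches without a peak exceeded 500 kb. Closed and absent DNA cannot be told apart in a list of peaks, and copy number was not analysed here.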

How the data were processed

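ATAC-seq peak lists of CAMA-1 cells in 2 biological replicates were analysed. Per the submitters' processing notes and the methods of the study, the authors trimmed reads with Trim Galore 0.6.5, aligned them with Bowtie2 2.3.5.1 to hg38 and called peaks with MACS2 2.2.6 in each replicate without pooling. The deposited columns were a score (10 times the −log10 q, cut to a whole number), a fold enrichment (a ratio), a −log10 p-value and a −log10 q-value. Further peak calling settings and the handling of duplicates are not given in the sources used here. In 100% of peaks the deposited fold enrichment was a whole multiple of 0.230 in replicate 1 or 0.221 in replicate 2, with a tolerance of 0.001 steps, which gave each peak's height and backgrounds of 3.35 and 3.52 reads.

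Peaks of both replicates sharing at least 1 bp were joined into regions, and TSSs came from GENCODE release 44. The genes named are the 10, the genes whose TSS lies within 1 kb of their TSS peaks, and partner genes without a TSS peak or among the 3 highest and 3 lowest. UQCC5, SUZ12, EED, RBBP4, RBBP7 and the genes beside BRD7 fall outside this rule and were named after their values were seen. Promoter sequences were chosen for the 3 highest and 3 lowest TSS peaks. The genes, lists, motifs and alternatives were chosen with earlier results of these data known. The functions were tested on simulated data. Python 3.11.15, numpy 2.4.6, pandas 2.3.3, scipy 1.17.1, statsmodels 0.14.6 and matplotlib 3.10.9 were used.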

Additional observations from a re-analysis of the deposited data

How the results depend on the processing

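Of 66 alternatives over 11 results, 41 were classed as leaving the result the same and 25 as moving it. Counts classed as the same could still shift. The 238 regions became 185 for peaks whose −log10 q reached 10, 183 over gene bodies and 334 with 50 kb either side. Among the 50000 strongest peaks, 66 TSS positions and 48 partner genes kept a peak, in place of 90 and 56. All 10 genes kept a TSS peak except with only the 5′ end of each gene, where 9 did. When peaks had to cover the TSS, the median TSS fold enrichment of the 10 genes was 46.95, its ratio to all protein-coding genes 0.853 and the share of regions away from TSSs 80.7%. With only the 5′ end of each gene the median was 31.3 and the ratio 0.638. With 3 kb in place of 1 kb, 214 TSS positions had a peak and the share away was 50%. The ratio was 1.35 with −log10 q as strength, 1.33 against genes within 5 Mb and 1.26 to 1.30 when a replicate was left out. The median density was 9.83 regions per 100 kb for peaks whose −log10 q reached 10, 10.3 over gene bodies, 11.8 with 50% reciprocal overlap, 11.2 with 50 kb either side and 13.5 to 13.9 from 1 replicate alone. The 50000 strongest peaks left 49 regions, 1.93 per 100 kb and 51.0% away from TSSs. Peaks found again were 93.1% and 90.8% with the −log10 q minimum, 96.1% and 92.6% among the strongest, and 78.1% and 76.7% with reciprocal overlap, for replicates 1 and 2. No paired analysis was possible because the replicates form a single condition. With 2 replicates, spread is poorly known, and heights near the lowest listed one of 11 reads carry the widest counting error.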
